A study of Mus musculus with 24 samples.

Results

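Intervals inside gene bodies are the open-chromatin sites that lie within protein-coding genes but away from their ends. An interval was taken when its midpoint lay inside a GRCm38 protein-coding gene and more than 1 kb from every protein-coding gene end. The rule uses position only, so no measured value chose the members. It took 143948 of the 299780 intervals of the untreated (Ctrl) table and 130967 of the 272268 intervals of the INK128-treated (Paused) table, 48.0% and 48.1% of each table. Accessibility was read by ATAC-seq, an assay that tags open DNA with a transposase, in E14 mouse embryonic stem cells. Besides wild-type (WT) cells there were a pair of Smad2 knockout (KO) clones, Smad2_KO1 and Smad2_KO2. Each line was grown on gelatin in serum medium with LIF, either untreated (Ctrl) or for 12 h with 200 nM INK128, an mTOR inhibitor used to induce pausing (Paused). Each of the 6 groups had 4 libraries of 50000 live cells, 24 in all. The knockout is represented by 2 lines and the wild type by 1 line, and the labels do not say whether the replicates were separate cultures. The p-values therefore measure the spread between these libraries, which may be technical, and a line cannot be told apart from its genotype.

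Most regulatory DNA in a mammalian genome is not at promoters. Introns hold enhancers, which bind transcription factors and act on the host gene or on other genes, together with alternative start sites of the host gene and starts of non-coding RNAs. Smad2 carries Nodal and Activin signals from the receptors to the nucleus, where it binds DNA with partners such as Smad4 and Foxh1. Inhibition of the mTOR kinase, a nutrient and growth sensor, puts mouse embryonic stem cells into a reversible slowed state that resembles embryonic diapause.

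The libraries held 11772458 to 16525762 reads in intervals in Ctrl and 11456986 to 20007829 in Paused. The values are reads scaled by 1 factor per library within a table, called normalized reads here. The tables were scaled separately, so Paused and Ctrl are compared without a test. All 9 embryonic stem cell markers, among them Pou5f1, Sox2 and Nanog, had an interval in the gene or within 1 kb of it, and the median of their strongest levels was 245 normalized reads in Ctrl and 311 in Paused. All 12 primitive endoderm, 9 trophoblast and 11 fibroblast markers had an interval too, so an interval at a marker gene does not separate the cell types. The sums over the strongest intervals of these lists overlapped between lines, for example 1996 to 2365 in WT and 1851 to 2292 in the KO lines for primitive endoderm in Ctrl. In the Paused table, replicate 2 of Smad2_KO1 and of Smad2_KO2 differed by no more than the sampling noise of their counts. The chi-square per degree of freedom was 1.0013, with an upper limit of 1.0055, although the libraries are labelled as different clones. Among WT libraries, replicates 3 and 4 were both above replicates 1 and 2 at 15.1% of tested gene-body intervals in Ctrl and 16.4% in Paused, and both below them at 24.1% and 19.4%. The counts of calls, and the difference from gene ends at equal level, are given with and without these WT libraries. The counts are also given without each KO library of the pair that agreed within sampling noise.

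Sequence is at hand for the gene-body intervals that lie on an alternative start site of their own gene. The 6 windows below are shown because they mark the extremes of that group. They are the 2 strongest in Ctrl and, in each table, the called interval with the largest rise and the one with the largest fall among those of 50 or more normalized reads whose KO libraries all lay on one side of WT. Each is the 250 bases before a RefSeq start (GRCm38.p6, the same coordinates as mm10), written 5′ to 3′ on the gene's strand in lower case, with every CG dinucleotide in capitals.
Aktip (Ctrl, strongest; chr8:91134028-91134277, minus strand): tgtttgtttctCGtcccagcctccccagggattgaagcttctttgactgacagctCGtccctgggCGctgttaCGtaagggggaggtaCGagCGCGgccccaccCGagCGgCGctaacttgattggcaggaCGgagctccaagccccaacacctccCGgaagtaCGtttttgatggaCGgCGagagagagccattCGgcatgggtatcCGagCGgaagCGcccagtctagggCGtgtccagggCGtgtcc
Ing1 (Ctrl, strongest; chr8:11558160-11558409, plus strand): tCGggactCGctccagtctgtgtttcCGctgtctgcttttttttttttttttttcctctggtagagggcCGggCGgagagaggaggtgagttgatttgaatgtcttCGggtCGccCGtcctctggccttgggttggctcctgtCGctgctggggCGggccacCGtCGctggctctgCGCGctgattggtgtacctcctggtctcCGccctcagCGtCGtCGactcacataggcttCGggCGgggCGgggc
Kat2b (Ctrl, largest rise; chr17:53583876-53584125, plus strand): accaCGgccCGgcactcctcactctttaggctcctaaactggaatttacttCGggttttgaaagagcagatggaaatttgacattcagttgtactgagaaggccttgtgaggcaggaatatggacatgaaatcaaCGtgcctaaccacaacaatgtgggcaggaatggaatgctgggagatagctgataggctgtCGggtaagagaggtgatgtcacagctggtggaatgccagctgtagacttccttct
Schip1 (Ctrl, largest fall; chr3:68467933-68468182, plus strand): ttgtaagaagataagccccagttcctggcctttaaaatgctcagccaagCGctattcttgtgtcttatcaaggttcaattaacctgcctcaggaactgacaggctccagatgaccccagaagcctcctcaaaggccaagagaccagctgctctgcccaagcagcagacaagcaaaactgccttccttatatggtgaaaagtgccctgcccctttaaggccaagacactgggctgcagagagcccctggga
Fkbp6 (Paused, largest rise; chr5:135350045-135350294, minus strand): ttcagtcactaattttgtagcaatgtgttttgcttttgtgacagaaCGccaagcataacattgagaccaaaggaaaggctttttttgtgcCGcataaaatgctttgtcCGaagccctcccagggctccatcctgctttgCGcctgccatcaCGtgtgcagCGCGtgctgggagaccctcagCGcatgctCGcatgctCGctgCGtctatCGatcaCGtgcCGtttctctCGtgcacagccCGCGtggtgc
Prox2 (Paused, largest fall; chr12:85106432-85106681, minus strand): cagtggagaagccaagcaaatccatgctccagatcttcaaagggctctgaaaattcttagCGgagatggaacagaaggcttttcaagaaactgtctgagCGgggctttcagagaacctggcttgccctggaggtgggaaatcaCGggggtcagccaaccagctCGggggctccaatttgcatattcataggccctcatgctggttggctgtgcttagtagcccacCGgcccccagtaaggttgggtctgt

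The windows of Aktip and Ing1 each hold 21 CG dinucleotides. That of Fkbp6 holds 17, those of Kat2b and Prox2 hold 5 each, and that of Schip1 holds 1. Expressed as CpG observed over expected, a measure near 1 in CpG islands and far lower in most of the genome, the windows run from 0.0612 (Schip1) to 0.952 (Fkbp6). The GC content was 61.6% for Aktip and Ing1, 54.0% for Prox2, 53.6% for Fkbp6, 51.6% for Schip1 and 48.4% for Kat2b. Aktip encodes a Fused toes protein of the AKT pathway, Ing1 a reader of methylated histone H3, Kat2b a histone acetyltransferase, and Fkbp6 an immunophilin needed in male germ cells.

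Gene-body intervals were weak sites compared with those at gene ends. The median level over 12 libraries was 19.9 normalized reads in gene bodies and 80.05 within 1 kb of gene ends in Ctrl, and 23.3 and 108 in Paused. Intergenic intervals were close to gene bodies, with 21.8 (within 50 kb of a gene) and 18.7 (farther away) in Ctrl. Only 7.94% of gene-body intervals reached 100 normalized reads in Ctrl, against 45.7% at gene ends, and in Paused the shares were 10.4% and 51.6%. Those few were numerous all the same. There were 11430 gene-body intervals at 100 or more in Ctrl, beside 10142 at gene ends. The rule's limit of 1 kb did not mark a step in level: in Ctrl the median was 26.0 for the 706 members 1000 to 1100 bases from an end and 24.5 for the 743 intervals inside a gene 900 to 1000 bases from one. Gene bodies carried a mean of 39.7 ± 0.587% of the signal in tested intervals in WT, 40.3 ± 0.465% in Smad2_KO1 and 40.1 ± 0.224% in Smad2_KO2 in Ctrl (SD, n = 4 libraries each). In Paused the shares were 39.2 ± 0.898%, 40.4 ± 0.399% and 40.4 ± 0.467%. The lines overlapped in both tables, the WT libraries running from 38.2% to 40.1% in Paused and the KO libraries from 39.8% to 40.9%.

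**Figure D1:**
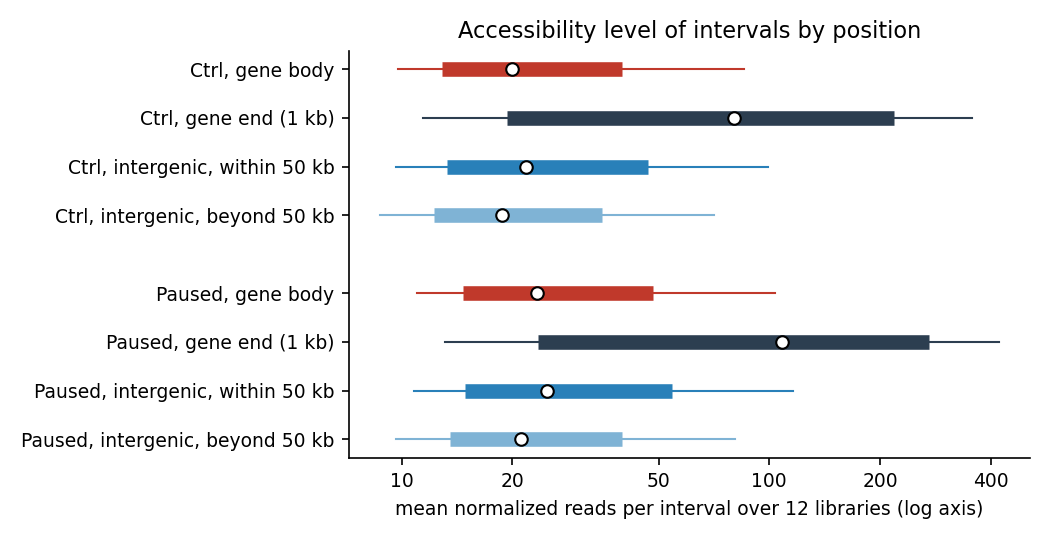
Level of intervals by position in the Ctrl and Paused tables, as mean normalized reads over 12 libraries on a log axis. Circles are medians, thick bars the 25th to 75th and thin lines the 10th to 90th percentiles; gene-body medians (19.9 and 23.3) sit beside the intergenic ones and far below gene ends (80.05 and 108).

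The strongest gene-body intervals differed little between lines. The highest in both tables was in Zfp574, a zinc finger gene, 1402 bases from a gene end (chr7:25076996-25077196). It read 831, 839, 787 and 869 in the WT libraries in Ctrl and 740.5 to 908 in the KO libraries, and the groups overlapped. The Aktip interval (chr8:91134133-91134333), on the window printed above, read 783, 798, 717 and 816 in WT and from 716 to 907 in KO, with a median of 757. The Ing1 interval (chr8:11558169-11558369) read 836, 741, 676 and 813 in WT and from 717 to 823 in KO, with a median of 769.6. The next were in Rfx1, a transcription factor gene, and in Sin3a, the scaffold of a histone deacetylase complex, where the interval covers the start of the lncRNA 2700012I20Rik. None of these 5 was called in Ctrl, where their log2 fold changes ran from -0.11 to 0.04. In Paused the top 5 were Zfp574, Rfx1, Aktip, Sin3a and Kat6b, a histone acetyltransferase gene. None of them passed the test in both clones on the authors' scale, with log2 fold changes of -0.12 to -0.19 per clone. The KO libraries lay below the WT libraries at Sin3a and Kat6b, with 738.6 to 817 in KO and 820.1 to 908 in WT at Kat6b. After size factors all 5 were called lower in both clones, with log2 fold changes of -0.24 (Zfp574) to -0.29 (Kat6b), and by edgeR's quasi-likelihood test Rfx1, Sin3a and Kat6b were.

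**Figure D2:**
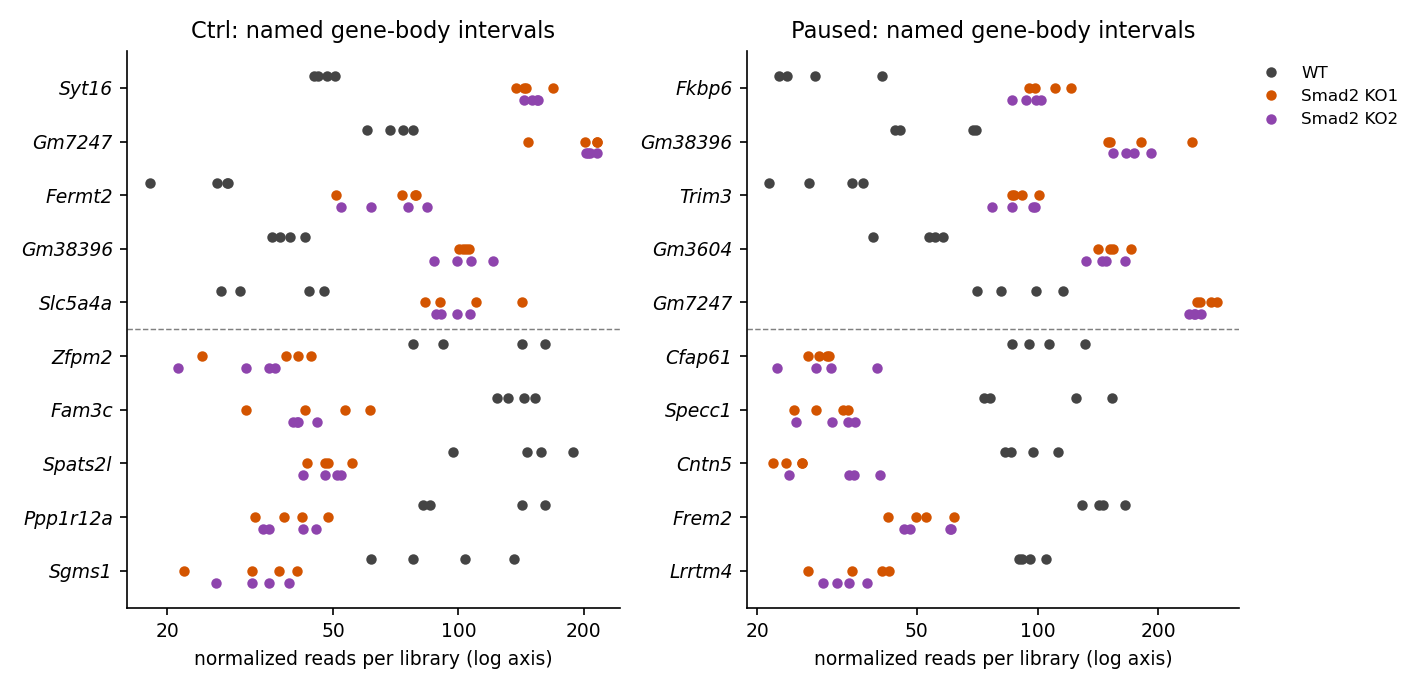
Normalized reads of each library, on a log axis, for the 5 higher and 5 lower gene-body intervals named in each table (WT, Smad2 KO1 and Smad2 KO2, 4 libraries each). In each interval all 8 KO libraries lie on one side of the 4 WT libraries, as the naming rule requires.

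Gene-body intervals differed between the Smad2 KO clones and WT in both directions. Their shares were near those of all intervals, which include them, but not near those of gene ends. In Ctrl, 5324 of 136642 tested members were higher in both clones (3.90%, against a background of 3.95% over all tested intervals) and 3975 were lower (2.91%, against 3.20%). In Paused, 12474 of 126451 were higher (9.86%, against 9.01%) and 5211 lower (4.12%, against 4.92%). At gene ends 1.66% were higher and 2.16% lower in Ctrl, and 4.06% and 7.89% in Paused. Intergenic intervals within 50 kb of a gene had 4.54% and 3.35% in Ctrl and 8.96% and 4.93% in Paused. Those farther away had 4.18% and 4.24%, and 9.00% and 5.80%. These shares are not at equal level. A member was called when its adjusted p was under 0.05 with the same sign in each clone against WT, by limma with Benjamini-Hochberg adjustment over all tested intervals. Higher members were weak sites, with a median level of 28.0 in Ctrl and 25.8 in Paused, while lower members had medians of 45.8 and 80.3. Few changes were large: in Ctrl 1001 higher and 933 lower members reached an absolute log2 fold change of 1 in both clones (0.733% and 0.683%, against a background of 0.754% and 0.758%). In Paused 2834 and 664 did (2.24% and 0.525%, against 2.05% and 0.603%). All 8 KO libraries lay above the 4 WT libraries at 3378 of the called higher members in Ctrl (background 2.49%) and below them at 2725 of the lower members (background 2.18%). In Paused the counts were 7607 (background 5.52%) and 3357 (background 3.17%).

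The split between higher and lower depends on the scaling. Of the called members, 57.3% were higher in Ctrl and 70.5% in Paused on the authors' scale, but 38.9% and 47.7% after median-of-ratios size factors. Over all tested intervals the median change was 0.08 (log2) in Ctrl and 0.12 in Paused on the authors' scale, and 0.01 in both after size factors, so directions are given relative to these medians where named. The gene-body median lay 0.0163 above the median of all intervals in Ctrl and 0.0388 above it in Paused, and after size factors the distances were 0.0166 and 0.0391. After a loess correction along the level they were -0.00176 and 0.0139. The counts also rest on single libraries. Without Ctrl Smad2_KO1 replicate 1 there were 3547 higher members in Ctrl, and without Smad2_KO2 replicate 2 there were 3247. Without Paused Smad2_KO2 replicate 2, one of the pair that agreed within sampling noise, 8165 members were higher and 4049 lower in Paused, and without Smad2_KO1 replicate 2, 8591 and 3812. With WT replicates 1 and 2 alone, 2624 were higher and 1657 lower in Ctrl, and with replicates 3 and 4 alone 6498 and 4232. In Paused the counts were 9938 and 3748 with replicates 1 and 2 and 10986 and 4865 with replicates 3 and 4. No gene-body interval was called between the clones (0 by limma, by edgeR's quasi-likelihood test and by DESeq2, with a background of 0%). At an unadjusted p under 0.05 the numbers were 4568 in Ctrl (3.34% of those tested, against 3.28% of all intervals) and 2551 in Paused (2.02%, against 1.97%). As whole libraries, the same-numbered clone pairs of Ctrl differed by more than sampling noise (chi-square per degree of freedom 1.016 to 1.27, with a limit of 1.0053). In the authors' deposited table, 8871 gene-body intervals were higher and 7690 lower in KO in Ctrl at a false discovery rate under 0.05 (6.16% and 5.34%, against 6.27% and 5.93% of the whole table). For Paused, the authors' deposited table has 18139 higher and 9628 lower (13.9% and 7.35%, against 12.6% and 8.96%). Where an interval of one table matched one of the other, 4818 members were called in both tables in one direction and 0 in opposing directions. These were 61.1% of the matched Ctrl calls and 32.4% of the matched Paused calls.

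Among called intervals of level 50 or more without overlap, the largest rise in Ctrl was in Syt16, a synaptotagmin gene, at an interval 128515 bases from the gene's 5′ end (chr12:74126039-74126239). It read 45.9, 48.4, 44.9 and 50.7 in the WT libraries in Ctrl. In the KO libraries it read 137 to 169 with a median of 148. Every KO library was far above every WT library. The log2 fold change was 1.63 in one clone and 1.65 in the other (limma SE 0.12, adjusted p = 1.9e-13 and 1.1e-13, limma). The same site in Paused read 79.9, 62.3, 83.1 and 92.7 in WT and 188 to 219 in KO. In Gm7247, a predicted gene, an interval at chr14:51434572-51434772 read 68.4, 73.5, 60.2 and 77.6 in WT and 147 to 215 in KO, with a median of 206. In Fermt2, which encodes the integrin activator kindlin-2, chr14:45495915-45496115 read 18.2, 27.8, 26.3 and 28.0 in WT and 50.8 to 84.2 in KO, with a median of 74.3. The other risers in Ctrl were Gm38396 and Slc5a4a, a gene of the sodium/glucose cotransporter family. Their log2 fold changes over both clones, with those above, ran from 1.39 to 1.64.

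In Paused the largest rise by the same rule was at the alternative Fkbp6 start printed above (chr5:135349927-135350127). WT libraries read 23.8, 27.9, 22.7 and 41.0, and KO libraries 86.4 to 121 with a median of 98.7. No library overlapped, and the clones rose by 1.88 and 1.73 on the log2 scale (limma SE 0.15, adjusted p = 5.2e-11 and 5.6e-10, limma). In Ctrl the site was at 24.6, 28.7, 16.4 and 26.96 in WT and 46.3 to 76.5 in KO, and it was called higher there too. Gm38396, Trim3, a ubiquitin ligase gene, Gm3604 and Gm7247 followed, with log2 fold changes over both clones of 1.63, 1.59, 1.54 and 1.49. In 4 of these 5, WT replicates 3 and 4 were both above replicates 1 and 2, yet below every KO library. Gm3604, Gm38396, Gm7247 and Slc5a4a belong to families or gene clusters with similar copies, where reads may be split between copies, so their values are uncertain.

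Falls of similar size were seen at other sites, often with uneven WT libraries. In Zfpm2, the gene of the GATA cofactor FOG2, an interval 149212 bases from the nearest gene end (chr15:40955280-40955480) read 91.9, 77.9, 142 and 162 in WT in Ctrl and 21.2 to 44.2 in KO, with a median of 35.7. On the log2 scale the clones stood at -1.62 and -1.87 (limma SE 0.19, adjusted p = 9.2e-08 and 3.7e-09, limma). In Fam3c, which encodes a secreted protein, chr6:22347220-22347420 read 153, 143, 124 and 132 in WT and 30.8 to 61.2 in KO, with a median of 42.0. In Spats2l, chr1:57890385-57890585 read 97.2, 146, 188 and 157 in WT and 42.3 to 55.5 in KO. Ppp1r12a, a myosin phosphatase subunit, and Sgms1, a sphingomyelin synthase, completed the group. In 4 of these 5, both WT replicates 3 and 4 were above both replicates 1 and 2. That pattern held at 46.8% of the 3975 lower members in Ctrl, against 15.1% of all tested members and 11.6% of the higher ones. In Paused it held at 30.8% of the lower members against 16.4%. Its part in these calls was not tested.

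Among intervals of level 50 or more, the largest falls in Paused were in Cfap61, Specc1, Cntn5, Frem2 and Lrrtm4, all genes longer than 100 kb. The Cfap61 interval (chr2:146073378-146073578), in a gene of motile cilia, read 107, 131, 86.3 and 95.3 in WT and 22.4 to 39.8 in KO, with a median of 29.2. In Cntn5, a neural adhesion molecule, chr9:10186148-10186348 read 112, 97.7, 83.1 and 86.1 in WT and 21.9 to 40.5 in KO, with a median of 25.9. The groups were far apart in both, and the log2 fold changes were -1.81 and -1.77 for Cfap61 and -1.91 and -1.49 for Cntn5. All 10 intervals named in Ctrl had a counterpart in Paused, and all 10 were called there with the same sign. Of the 10 named in Paused, 9 had a counterpart in Ctrl, each called with the same sign, and the Trim3 interval had none.

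At equal level, the median change in gene bodies lay above that at gene ends in most level bins of both tables. It lay above that of intergenic intervals in most bins only in Paused. The change was lower in the strongest level bin than in the weakest in every class. Gene-body medians in Ctrl went from a log2 fold change of 0.22 in the weakest of 20 level bins to -0.08 in the strongest. In Paused they went from 0.39 to -0.16. The weakest Ctrl bin (5.95 to 9.76) lies below 10, the value a tested interval had to reach in at least 4 libraries. The 8 KO libraries can meet that limit more easily than the 4 WT ones, which favours weak intervals high in KO. At 20.1 to 22.4 normalized reads in Ctrl the median was 0.15, and at 22.9 to 25.7 in Paused 0.22. The part of the limit in this trend was not tested. Gene-body medians were above gene-end medians in 19 of 20 bins in both tables. Against intergenic intervals within 50 kb of a gene they were above in 8 of 20 bins in Ctrl and 20 of 20 in Paused. Against intergenic intervals farther away the numbers were 10 and 18 of 20.

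**Figure D3:**
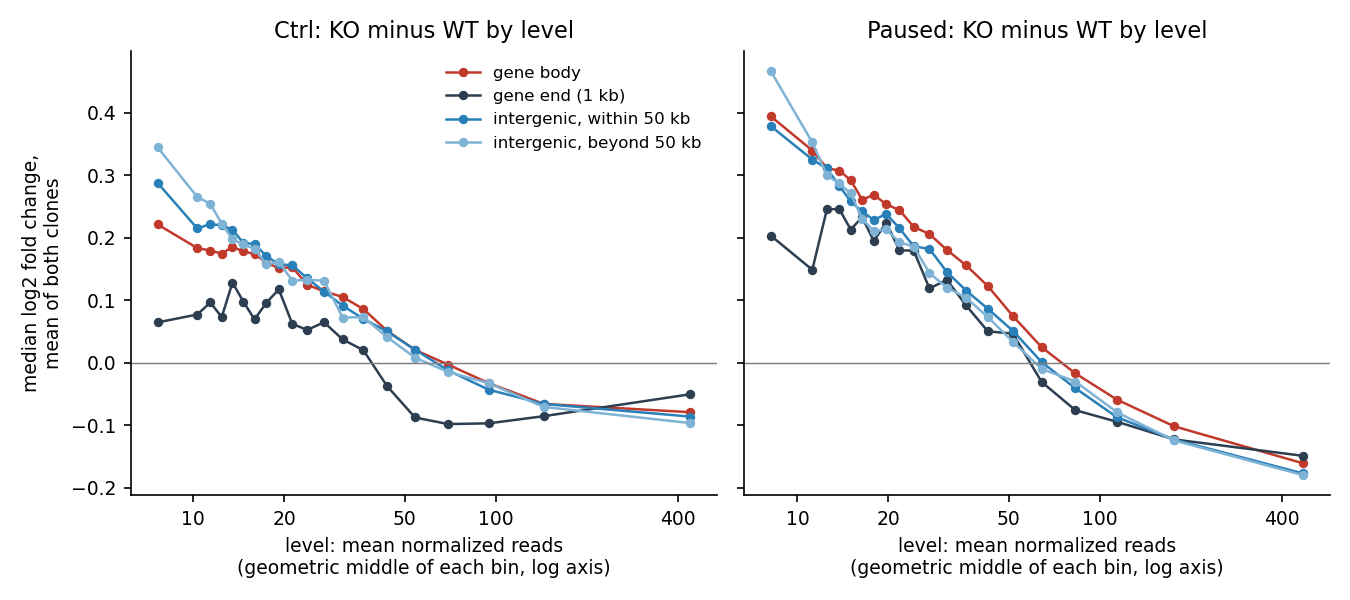
Median log2 fold change (KO minus WT, mean of both clones) in 20 bins of level, by position, in Ctrl and Paused. All curves end lower than they start; the gene-body curve lies above the gene-end curve in 19 of 20 bins in each table and close to the intergenic curves.

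To compare libraries, the difference in mean log2(value + 1) between classes was taken within level bins and averaged with the number of gene-body intervals as weights. Gene body minus gene end in Ctrl was -0.0525, -0.0478, -0.0461 and -0.0870 in the WT libraries. It was 0.0157, 0.0674, 0.00390 and -0.0172 in Smad2_KO1, and 0.0272, 0.0218, -0.0204 and -0.0326 in Smad2_KO2. All 8 KO libraries were above all 4 WT libraries, and the means differed by 0.0666 (0.0584 with WT replicates 1 and 2 alone, 0.0748 with 3 and 4). In Paused the WT mean was -0.0499 ± 0.0401 and those of the clones 0.00781 ± 0.0195 and 0.00343 ± 0.0193 (SD, n = 4), a difference of 0.0555 with overlapping groups (0.0409 with WT replicates 1 and 2 alone, 0.0701 with 3 and 4). Against all intergenic intervals the difference in Ctrl was -0.00472, with overlap. In Paused it was 0.0339: the WT libraries ran from -0.0350 to -0.0108 and the KO libraries from -0.0107 to 0.0323, so that they did not overlap, but only just. Against intergenic intervals within 50 kb of a gene (0.0272) and beyond (0.0451) taken separately, the Paused libraries overlapped.

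**Figure D4:**
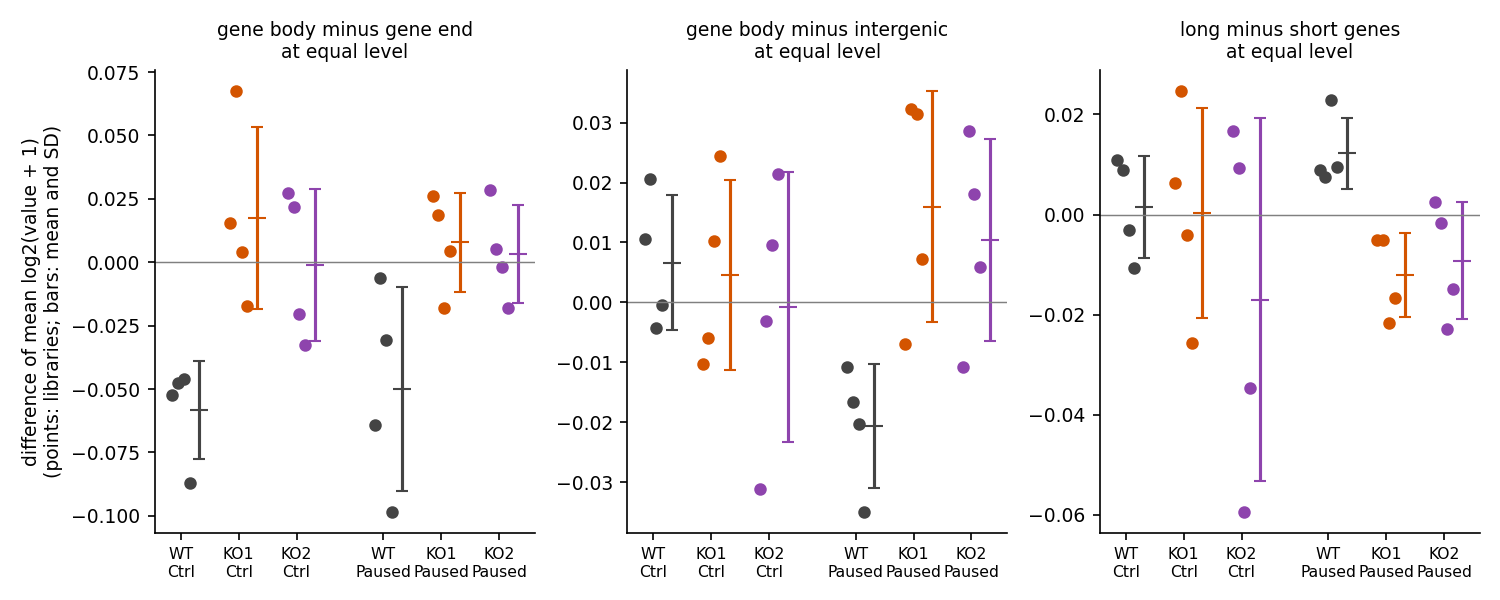
Per-library differences in mean log2(value + 1) at equal level for gene body against gene end, gene body against intergenic, and genes of 100 kb or longer against shorter ones; points are libraries, bars mean and SD of 4. The 8 KO libraries lie above the 4 WT libraries for gene body minus gene end in Ctrl, by 0.0666 on average.

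Long genes held gene-body intervals at lower density. The 557 genes over 300 kb had 23575 members in Ctrl (16.4%), 7.39 per 100 kb of gene, against 19.0 per 100 kb in genes of 10 to 30 kb. Levels hardly differed with gene length: median 20.6 in genes under 10 kb and 20.1 in those over 300 kb. Members at 100 or more made up 12.8% in the shortest class and 6.19% in the longest. In Ctrl the share lower in both clones rose from 2.08% in genes under 10 kb to 4.53% in genes over 300 kb, with 1014 of 22365 members, while the share higher went from 2.11% to 3.82%. In Paused the lower share was 4.02% and 5.49% in these classes and the higher share 7.16% and 8.89%. The median log2 fold change was highest in genes of 100 to 300 kb (0.11 in Ctrl, 0.17 in Paused) and lowest in genes under 10 kb (0.00230 and 0.0699). At equal level, genes of 100 kb or longer minus shorter ones differed between KO and WT by -0.00989 in Ctrl, with overlap. In Paused the difference was -0.0229, with WT libraries at 0.00759 to 0.0229 and KO libraries at -0.0228 to 0.00242.

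**Figure D5:**
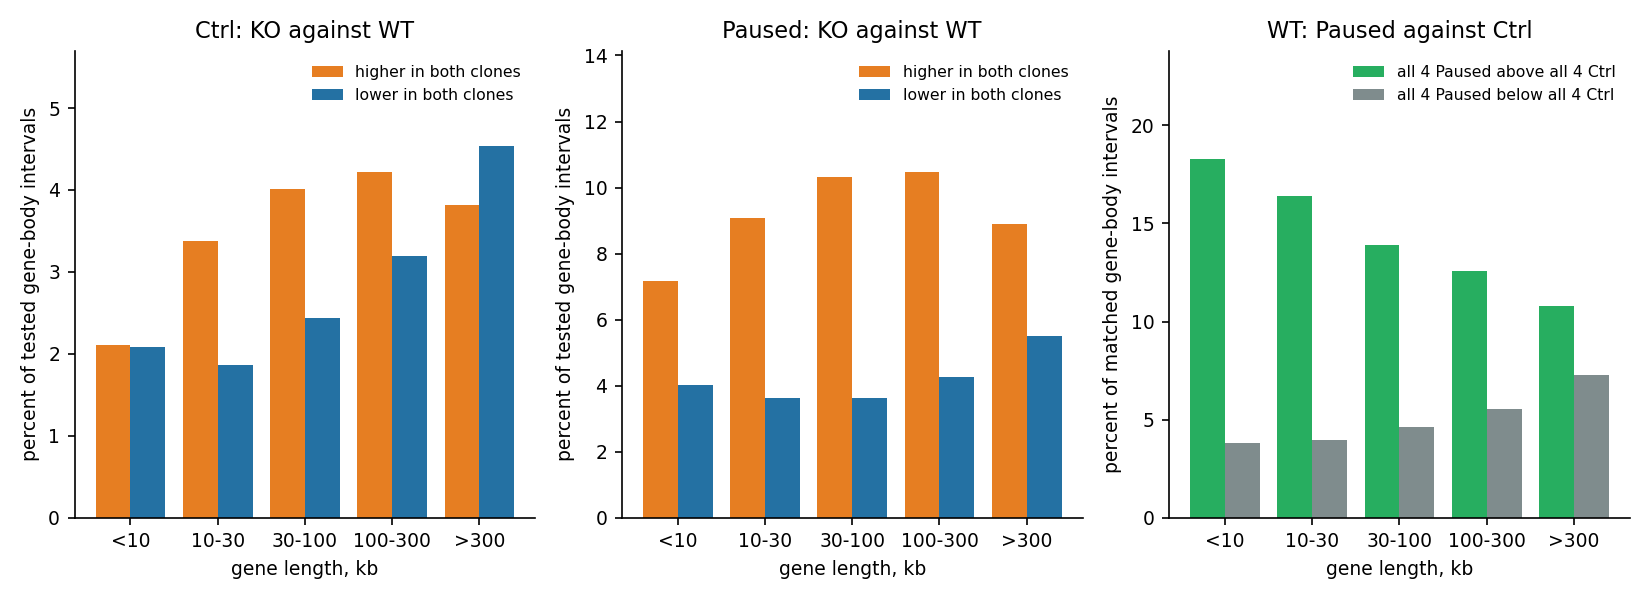
Percent of tested gene-body intervals higher or lower in both clones (Ctrl and Paused) and percent of matched gene-body intervals with all 4 Paused WT libraries above or below all 4 Ctrl WT libraries, by gene length. Lower calls in Ctrl rise from 2.08% to 4.53%, and the share above in Paused WT falls from 18.3% to 10.8% from the shortest to the longest genes.

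Distance from the 5′ end could be read for genes with a known strand, 113371 members in Ctrl. The 2357 members 1 to 2 kb downstream had a median level of 23.2 and 21.0% at 100 or more, against 19.5 and 7.86% at 10 to 30 kb. Their median log2 fold change was -0.05 in Ctrl and -0.03 in Paused. It was 0.11 and 0.18 at 30 to 100 kb. Higher calls went from 1.66% to 4.27% of members in Ctrl and from 4.34% to 10.9% in Paused between these distances, while lower calls went from 2.15% to 2.89% and from 5.39% to 3.86%. Beyond 100 kb higher calls were fewer again, at 3.90% and 9.75%, and lower calls stood at 3.79% and 4.81%.

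Members were spread over many genes. A member was present in 15072 of the 21887 protein-coding genes in Ctrl, with a median of 5 members and at most 177 in a gene. The genes with most members in Ctrl were Dst, a cytoskeletal linker (177), Etl4 (169), the cAMP phosphodiesterase gene Pde4d (152), the RNA-binding protein gene Msi2 (143), the receptor phosphatase gene Ptprg (143), Camta1 (139), Nav2 (138) and the teneurin gene Tenm4 (131). In Paused they were Etl4 (154), Camta1 (148), Dst (125), Msi2 (123), Tenm3 (120), Gse1 (119), Nav2 (117) and Pde4d (115). Many members did not mean many changes: 3 of 169 tested Dst members were higher and 1 lower in Ctrl. At least 1 member was called in 4888 of the 14901 genes with a tested member in Ctrl (32.8%) and in 7353 of 14758 in Paused (49.8%).

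Within a gene the called members could differ in direction. Among 314 genes with 5 or more calls in Ctrl, 52 had only higher and 35 only lower calls. Among 903 in Paused, 216 had only higher and 20 only lower calls. In Ctrl the most calls were in Etl4 (14 higher, 4 lower of 162 tested), where 11.1% were called, against 7.15% of all tested intervals. The sialyltransferase gene St6galnac3 had 13 higher and 1 lower of 99. Magi2, a synaptic scaffold, had 4 higher and 10 lower of 101. Auts2, a transcriptional regulator gene, had 3 higher and 11 lower of 124. Camkmt (10 and 3 of 77), the corepressor gene Rere (1 and 12 of 79) and Erc2 (3 and 9 of 61) came next. Zfp951, a zinc finger gene, stood apart with 12 higher of 17 tested and a median log2 fold change of 1.17; it belongs to a family with similar copies, so reads may be shared. In Paused the leaders were Pakap (17 higher, 9 lower of 99), Pdzd2 (17 and 6 of 93), Pde4d (17 and 6 of 114), Camta1 (15 and 8 of 145), Tenm3 (12 and 10 of 115), Cdh13, a cadherin gene (12 and 9 of 108), and Etl4 (13 and 8 of 147). By share of tested members, Camta1 (15.9%) and Etl4 (14.3%) were near the 13.9% called over all tested intervals in Paused. Arhgap10 had 19 higher and 1 lower of 42, with a median log2 fold change of 0.69.

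Gene-body intervals of the targeted gene gave no check of the knockout. In Smad2 0 members were called lower in either table, but a small edit, or one outside these intervals, need not change their reads. In Smad2, 0 of 6 tested members were called in Ctrl by limma and 2 of 10 were higher in Paused, against 0 by edgeR's quasi-likelihood test and 0 by DESeq2 in both tables. At an unadjusted p under 0.05 with one sign in both clones there were 3 in Ctrl and 2 in Paused. Its strongest member read 33.1, 31.4, 25.2 and 34.5 in WT in Ctrl and 23.7 to 43.2 in KO, with a median of 34.6, and the groups overlapped. In Pparg, the lipid regulator named in the title of the series, 0 of 5 members in Ctrl and 0 of 4 in Paused were called by limma, edgeR or DESeq2, and 1 and 0 had an unadjusted p under 0.05 with one sign in both clones. The strongest Pparg member read 68.4, 84.2, 64.6 and 84.1 in WT in Ctrl and 61.4 to 90.1 in KO. In Paused it read 153, 157, 149 and 179 in WT and 123 to 169.5 in KO.

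Pathway genes had shares of called members near those of all gene-body intervals in most lists. Against 3.90% higher and 2.91% lower among gene-body members in Ctrl, Nodal and TGF-beta pathway genes had 7 higher and 9 lower of 237 (2.95% and 3.80%). In Paused they had 16 and 16 of 242 (6.61% each), against 9.86% and 4.12%. Among receptor genes, Acvr2a had 2 higher members of 11 in Ctrl, and Acvr2b 3 of 15 and Acvr1b 3 of 13 in Paused. Other receptor genes had lower calls and 0 higher ones: Tgfbr1 1 of 2 in Ctrl and Tgfbr2 1 of 9 in Paused. Smad4 had 0 higher and 2 lower of 10 in Ctrl, and 0 and 1 of 11 in Paused. In Smad3, the effector most like Smad2, 2 of 30 were higher and 1 lower in Ctrl, and 2 of 28 each way in Paused. Ski, which represses Smad proteins, had 2 lower of 29 in Ctrl and 1 higher and 5 lower of 28 in Paused. Smurf1, a ubiquitin ligase that targets receptors and Smad proteins, had 1 of 31 each way in Ctrl. Lipid metabolism genes had 9 higher and 4 lower of 217 in Ctrl (4.15% and 1.84%) and 18 and 4 of 198 in Paused (9.09% and 2.02%). Rxra, the nuclear receptor partner of Pparg, had 3 higher of 18 in Ctrl, and 1 of 17 each way in Paused. Dgat2, which makes triglycerides, had 0 called of 7 in Ctrl and 3 higher of 8 in Paused. Ppard had 2 higher and 1 lower of 25 in Ctrl. Ppargc1a had 1 and 2 of 22 in Ctrl and 2 and 0 of 20 in Paused. Lpin1, a phosphatidate phosphatase gene, had 1 of 27 each way in Ctrl, then 2 higher and 1 lower of 25. Acaca had 2 higher and 1 lower of 23 in Paused. Genes of the mTOR pathway had 11 higher and 10 lower of 319 in Ctrl (3.45% and 3.13%), and 28 and 10 of 290 in Paused (9.66% and 3.45%). Deptor, an inhibitor of mTOR, had 3 higher and 1 lower of 39 in Ctrl and 8 higher and 1 lower of 31 in Paused. Rptor had 2 of 65 each way in Ctrl and 3 higher and 5 lower of 60 in Paused.

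Primitive endoderm markers had the highest median change of the 9 lists in both tables. Over all tested intervals, 3.95% were higher and 3.20% lower in Ctrl, and 9.01% and 4.92% in Paused. These markers had 11 higher and 1 lower of 137 in Ctrl (8.03% and 0.730%) and 19 and 1 of 132 in Paused (14.4% and 0.758%). Their median lay 0.16 above that of all intervals in Ctrl and 0.22 above in Paused, and 0.14 in both after the loess correction, beside 0.0163 and 0.0388 for all gene-body members. Most calls sat in basement membrane genes (Lama1, 3 of 20 and 5 of 20; Col4a2, 4 higher and 1 lower of 33 and 4 of 30) and in Hnf4a, a transcription factor gene (2 of 10 and 4 of 7). The other calls were in the basement membrane genes Col4a1 (1 of 16 and 2 of 20) and Lamb1 (1 of 18, then 2 higher and 1 lower of 15), and in Paused 1 each in Dab2 and Gata4. Gata6, Pdgfra, Sox17 and Sox7 had none by limma in either table. The gene medians were not all positive: that of the 2 Sox17 members was -0.38 in Ctrl, and that of the 12 Gata4 members was -0.08 in Paused. At the Col4a2 site with the largest change (chr8:11380127-11380327) WT libraries read 6.41, 5.37, 8.76 and 8.63 in Ctrl and KO libraries 11.7 to 40.1 with a median of 21.5. The clones were at 1.80 and 1.05 on the log2 scale (SE 0.28). In Paused the site read 2.16, 3.22, 12.9 and 1.32 in WT and 20.7 to 33.5 in KO. In bulk libraries, a larger share of cells of a type and more open chromatin per cell cannot be told apart, and the summed levels of the strongest sites of these markers overlapped between lines, as given above. Pluripotency factors had 6 higher and 2 lower of 296 in Ctrl (2.03% and 0.676%) and 20 and 8 of 282 in Paused (7.09% and 2.84%). Esrrb, an orphan nuclear receptor of the naive state, held 4 higher and 1 lower of 40, then 6 and 2 of 39, and Tet2 6 higher and 1 lower of 25 in Paused. Formative and primed genes had 0 higher and 2 lower of 82 in Ctrl (0% and 2.44%). In Paused they had 9 and 4 of 74 (12.2% and 5.41%), 6 of the higher ones in Dnmt3a. Trophoblast markers had 3 and 0 of 66 (4.55% and 0%) and 2 and 1 of 61 (3.28% and 1.64%). Fibroblast markers had 4 and 0 of 47 (8.51% and 0%) and 4 and 2 of 46 (8.70% and 4.35%). Long neuronal and fragile-site genes had 43 higher and 62 lower of 1452 in Ctrl (2.96% and 4.27%) and 83 and 63 of 1146 in Paused (7.24% and 5.50%). In Paused, Wwox was at 14 higher and 3 lower of 90 and Magi2 at 5 and 9 of 75.

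Gene-body intervals on RefSeq start windows were strong. Of 6671 annotated starts inside gene bodies, 1688 (25.3%) had an interval over at least 100 of their 300 bases in Ctrl. The 1668 members on a start had a median level of 136 in Ctrl and the 142280 others 19.7. In Paused the medians were 176 and 23.0. Members on a start of their own gene were at 170 in Ctrl and those on a lncRNA start at 39.0. The level rose with the CpG content of the 250 bases before the start. The median in Ctrl was 37.8 at an observed-to-expected ratio under 0.2, 144 at 0.4 to 0.6 and 226 at 0.8 or more, and in Paused 43.1, 178 and 281. Start members fell more often than they rose. In Ctrl 33 were higher and 66 lower of 1654 (2.00% and 3.99%, against 3.95% and 3.20% of all tested intervals). In Paused 87 and 178 of 1605 were (5.42% and 11.1%, against 9.01% and 4.92%). Strong gene-body intervals in general did so too. At 112 to 185 normalized reads in Ctrl 3.30% were higher and 8.10% lower, and at 137 to 227 in Paused 4.32% and 15.4%. At equal level, however, start members and other gene-body members overlapped in their difference between KO and WT ( -0.000293 in Ctrl and 0.0130 in Paused, with overlap). Calls in Ctrl were fewest at CpG-rich starts, with 1 higher and 1 lower of 329 at a ratio of 0.8 or more (0.304% each). Under 0.2 there were 10 and 19 of 268 (3.73% and 7.09%). In Paused the counts were 2 higher and 29 lower of 314 at 0.8 or more (9.24% lower) and 32 and 25 of 256 under 0.2 (9.77% lower). The Schip1 window printed above is an example of the CpG-poor kind. In addition, 4 short motifs, none of which contains another, were searched on both strands of the same 250 bases. GGGCGG, the core of the GC box, was in 44.9% of the windows under gene-body intervals in Ctrl and in 68.8% of those at 300 normalized reads or more, against 32.7% of all 32851 windows. CCGGAAG, an ETS-type site, was in 8.03%, 13.8% and 6.91%. TATAAA was in 5.88%, 4.93% and 12.4%, and CACGTG in 6.95%, 10.5% and 6.02%. The Aktip window holds CCGGAAG and the Ing1 window GGGCGG, while the Fkbp6 window holds CACGTG.

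Pausing in wild type left gene-body intervals near the middle of all sites. For the comparison of Paused with Ctrl, 208526 tested intervals were matched one to one at 50% reciprocal overlap, 99098 of them in gene bodies in both tables. The median difference in gene bodies was -0.00331 (log2) relative to all matched intervals, against 0.17 at gene ends and -0.09 for intergenic intervals beyond 50 kb. All 4 Paused libraries lay above all 4 Ctrl libraries at 13355 gene-body intervals (13.5%, background 14.0%) and below them at 5181 (5.23%, background 5.62%). The difference rose with level in gene bodies, from -0.16 in the weakest of 20 bins to 0.18 in the strongest. At equal level, gene body minus distant intergenic was -0.0347 ± 0.00427 in the Ctrl WT libraries and 0.0427 ± 0.00923 in the Paused ones (SD, n = 4). The libraries ran from -0.0384 to -0.0302 and from 0.0293 to 0.0503 and did not overlap. Gene body minus intergenic within 50 kb of a gene overlapped, at -0.00709 ± 0.0198 in Ctrl and 0.00875 ± 0.0142 in Paused. Gene body minus gene end overlapped too, at 0.00156 ± 0.0192 and -0.0248 ± 0.0348. Long genes stood lower after pausing: the median relative difference was 0.06 in genes under 10 kb and -0.06 in genes over 300 kb, and the share of members with all Paused libraries above fell from 18.3% to 10.8%. At equal level, long minus short genes was 0.0179 ± 0.00858 in Ctrl and -0.0206 ± 0.00790 in Paused, without overlap.

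Among matched intervals of level 50 or more in WT without overlap, the largest gains on pausing were in Myo18b, Agpat3, Scara5 and Ttc28. The Myo18b interval (chr5:112771425-112771625), in an unconventional myosin gene, read 12.8, 10.8, 15.3 and 10.8 in the Ctrl WT libraries and 164, 146, 124 and 103 in the Paused ones, a ratio of means of 10.8. The positions given are those of the Ctrl table. The Agpat3 interval (chr10:78326424-78326624), in a gene of phospholipid synthesis, read 39.5, 38.5, 43.8 and 26.96 and then 276, 249, 256 and 232. The Scara5 interval (chr14:65677533-65677733), in a ferritin receptor gene, went from a mean of 21.0 ± 6.29 to 143 ± 26.5. In Paused, the Agpat3 and Scara5 intervals were called lower in KO than in WT. For Agpat3 the log2 fold changes were -0.43 and -0.37 (adjusted p = 0.0015 and 0.0057, limma), with KO libraries at 173 to 219. High Paused WT values chose these sites, which favours lower KO values, so nothing is concluded from these calls. The KO medians also rose from Ctrl to Paused, from 32.5 to 190 at Agpat3 and from 21.7 to 110 at Scara5. Myo18b (18.5 to 146) and Ttc28 (15.2 to 62.7) were not called. The largest losses were in Pom121, a nuclear pore gene, Fhit, Dnah2, a dynein gene, and Lrrtm4. The Pom121 interval (chr5:135395772-135395972) read 66.2, 72.6, 82.1 and 70.1 in Ctrl and 10.8, 20.4, 16.2 and 17.2 in Paused. The Fhit interval (chr14:9658536-9658736), at a fragile site, read 58.8, 44.8, 49.3 and 62.6 and then 13.0, 16.1, 7.55 and 13.2. Every library of one treatment was apart from every library of the other in these 8, as the naming rule requires.

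Among the lists, long neuronal and fragile-site genes had the lowest median difference on pausing. Their 993 matched members had a median of -0.21 relative to all intervals, with 40 above and 117 below (4.03% and 11.8%, against 13.5% and 5.23% of gene-body members). The median was below 0 in all 24 of their genes with a matched member. Macrod2 had 2 above and 12 below of 68, and Fhit 3 and 9 of 54. Pluripotency factors stood at 0.04 (32 above, 9 below of 188), Nodal and TGF-beta genes at 0.09 (32 and 5 of 177) and lipid metabolism genes at 0.08 (27 and 3 of 153). Genes of the mTOR pathway stood at 0.02 (34 and 9 of 229) and primitive endoderm markers at 0.12 (21 and 2 of 106). Formative and primed genes stood at 0.00247 (6 and 3 of 53), trophoblast markers at 0.14 (9 and 1 of 51) and fibroblast markers at 0.09 (6 and 0 of 32). Start members, which are strong sites, gained, with a median of 0.18 and 27.04% of 1457 above. All gene-body intervals at 106 to 152 normalized reads had a median of 0.11 and 29.5% above. Start members were not compared at equal level for pausing.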

How the data were processed

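ATAC-seq was measured in 24 libraries of 6 groups. Per the submitters' processing notes, the tools were FastQC, Trim Galore, Bowtie2 2.4.1, MACS3 3.0.3 and DiffBind 3.16.0 with the mm10 build; their settings are not given in the sources used here. The values deposited by the authors are a signal: reads in intervals, nearly all 201 bases wide, divided by 1 factor per library, separately for each table. Low values were whole multiples of a step in every library (100% of values within 0.1 of a step), so whole reads could be recovered. The authors' deposited log2 fold changes and false discovery rates (adjusted p-values) were used only where named. A library held 11456986 to 20007829 reads in intervals, and counting error is largest at weak intervals.

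An interval was tested if it reached 10 in at least 4 of the 12 libraries of its table (94.9% of members in Ctrl, 96.6% in Paused). Log2(value + 1) was fitted with limma 3.58.1 (trend) in R 4.3.3 with the 3 lines of a table in 1 fit, and p-values were adjusted by Benjamini-Hochberg over all tested intervals. All fold changes use log2(value + 1), so those of weak intervals come out too small. Alternatives were edgeR 4.0.16 and DESeq2 1.42.0 on recovered reads, other scalings, filters, class limits and left-out libraries. The fit was also run on simulated reads with known changes and independent libraries. That setting lacks the uneven WT libraries of these data, so it does not vouch for the calls. Tables were built with Python 3.11.15, pandas 2.3.3 and numpy 2.4.6. Positions inside genes and start windows come from RefSeq (GRCm38.p6); strand was known for 79.9% of genes. An interval inside several genes was given to the shortest. Exons and introns were not used here.

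Named intervals were, per table, the 5 higher and 5 lower ranked by the clone with the smaller change, among calls of level 50 or more without overlap of KO and WT libraries, and the 5 strongest, 1 per gene. Named genes were the 8 with most members, the 8 with most calls, and up to 4 per list with most calls. For pausing, the 4 largest gains and 4 largest losses were named. Smad2, Pparg, the Col4a2 site and some further list genes were named beside this rule. The members, lists and rules were chosen with earlier results of these data known. Same-numbered libraries deviated together only weakly (mean correlation 0.0267 in Ctrl and 0.0524 in Paused, with 1 and 2 of 12 pairs over 0.1), so numbers were not taken as pairs.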

Additional observations from a re-analysis of the deposited data

Results flagged for a closer look

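Of 148 groups of 4 libraries searched, 7 held a library far from the other 3, about the number chance gives (7.4). For gene body minus gene end at equal level, 1 Ctrl WT library was at -0.0870 and the others at -0.0525 to -0.0461. For the share of signal in gene-body intervals, 1 Ctrl Smad2_KO1 library was at 40.9% (40.949) and the others at 40.0% (39.997 to 40.039). For start windows minus other gene-body intervals at equal level, 1 Ctrl Smad2_KO1 library was at -0.0138 and the others at 0.112 to 0.121. For long minus short genes at equal level, 1 Paused WT library was at 0.0229 and the others at 0.00759 to 0.00958. The Zfp574 interval read 955 in 1 Paused Smad2_KO2 library and 868 to 874 in the others. The Sin3a interval read 846 in 1 Paused WT library and 878 to 883 in the others. The Lrrtm4 interval named for its loss on pausing read 105 in 1 Ctrl WT library and 81.2 to 82.1 in the others.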

How the results depend on the processing

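The named higher and lower intervals kept their call in all 23 alternatives run for each. They were chosen for large changes without overlap of libraries, which favours this, so it says nothing about other calls. Counts of calls moved. Requiring an absolute log2 fold change of 1 left 1001 higher and 933 lower members in Ctrl and 2834 and 664 in Paused. In Ctrl, 3500 were higher with loess offsets, 3503 by edgeR and 1230 by DESeq2, and 6385 were lower by edgeR. In Paused, 8241 were higher with size factors, 6205 with loess offsets, 7666 by edgeR and 3428 by DESeq2, while 9048 were lower with size factors, 8265 with TMM and 9248 by edgeR. With WT replicates 1 and 2 only, 2624 were higher and 1657 lower in Ctrl, and with replicates 3 and 4 only 6498 and 4232. With the KO libraries of one number averaged, 9213 were higher and 6836 lower in Ctrl. Leaving out 1 library gave 3247 to 5949 higher and 2880 to 4105 lower in Ctrl and 8165 to 13709 and 3812 to 5674 in Paused. Beyond 2 kb from gene ends the share of signal was 37.2% in Ctrl and 36.9% in Paused, a smaller class by construction. The median pausing difference ran from -0.00637 to 0.00319 with 1 library left out, the latter without Paused WT replicate 4, so its sign is not fixed. Where not explained, the cause was not tested. The pseudocount, level bins and level choices do not enter the share of signal and were not run for it. Weak intervals are limited by depth.

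With the replicate number as a block, 6027 members were higher and 4316 lower in Ctrl, and 14424 and 6076 in Paused, and the block called Rfx1 and Kat6b lower in Paused. The numbers were not taken as pairs, because most same-number correlations were under 0.1, but the clones showed some likeness by number in Paused: their 4 same-number correlations were 0.0885, 0.187, 0.034 and 0.111.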
